A study of Arabidopsis thaliana with 9 samples.

Results

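Seedlings of Arabidopsis thaliana lacking normal SERRATE function (se-2) were compared with seedlings of the cbp20 cbp80 double mutant on 6 arrays of 1 slide, 3 per genotype, out of the 9 arrays of the study. The 6 arrays were taken by their titles, and every transcript class on the array was examined. The plants were 2 weeks old and grown on solid medium under long days, per the labels, and the remaining 3 arrays held Columbia (WT) seedlings on 3 further slides. The labels give neither the nature of the se-2 allele nor the alleles combined in cbp20 cbp80, and they name Columbia for WT only. The arrays were of the one-colour Cy3 kind, hybridised with total RNA after labelling, and had 15013 probes for 5154 transcripts: 4499 intergenic transcription units named by TU numbers, 224 lncRNA loci, 147 other ncRNA loci, 95 protein-coding loci, 173 microRNA (miRNA) precursors and a few others. The study's title names SERRATE, CBP20 and CBP80 together as regulators of long noncoding RNAs, and the comparison asks in which transcripts the mutants differ.

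In plants a miRNA is cut from a long, capped primary transcript by the Dicer enzyme DCL1 in the nucleus. SERRATE, a zinc finger protein, works beside DCL1 in that cut. CBP20 and CBP80 form the nuclear cap-binding complex, which holds the cap of the transcript and is needed for the same step, and both SERRATE and the complex also act in splicing. When cutting is impaired, primary transcripts are known to accumulate, and a precursor probe reads such uncut RNA and not the mature miRNA.

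A signal well above background was seen for 3286 to 3563 probes per array in se-2 and for 2809 to 3203 in cbp20 cbp80. A probe was tested if it was so measured on each se-2 array or on each cbp20 cbp80 array, which left 3040 probes of 1691 transcripts, and the brightest tested probe stands for its transcript. Values are scaled log2 signals, in which 0 is an array's 75th percentile over 1835 well-measured probes, so a difference of 1 is a doubling of signal. Arrays of se-2 correlated at 0.996 to 0.997 with each other across tested probes, cbp20 cbp80 arrays at 0.988 to 0.990, and arrays of different genotypes at 0.962 to 0.969. The median SD among arrays was 0.0840 in se-2 and 0.105 in cbp20 cbp80, and precision is limited by the number of arrays. Neither SERRATE, CBP20 nor CBP80 was named by a probe, so the labels could not be checked on the mutated genes. Of 24 organ marker genes the array held 2, both of seeds, and 1 of them, EM1, was tested and was higher in se-2 by 3.24. With 1 marker the make-up of the seedlings could not be checked either.

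More miRNA precursors were higher than lower in se-2, which was not the case for the other 4 main classes under the reported scaling. Of 126 tested precursors, limma called 76 higher in se-2 and 18 lower at a Benjamini-Hochberg adjusted p under 0.05, and 32 did not pass. Over all 1691 tested transcripts, 11.6% were called higher and 37% lower. By probe, 416 of 3040, or 13.7%, were higher and 1071, or 35.2%, were lower. The median difference, se-2 minus cbp20 cbp80, was 0.46 for precursors and -0.21 for all transcripts. Medians of the other classes were -0.10 for 87 protein-coding loci, -0.10 for 198 lncRNA loci, -0.15 for 129 other ncRNA loci and -0.31 for 1140 transcription units. RNA of whole seedlings was measured, so fewer cells that hold a transcript and less of it per cell cannot be told apart.

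**Figure D1:**
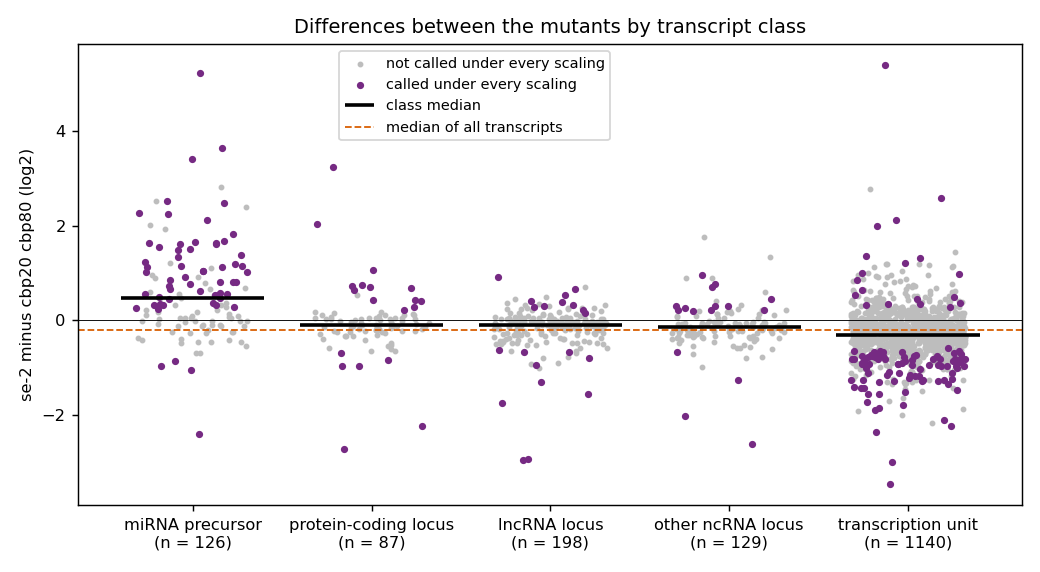
Difference in scaled log2 signal, se-2 minus cbp20 cbp80, for each tested transcript (a point at its brightest probe) in 5 classes. Black bars are class medians, the dashed line is the median of all transcripts at -0.21, and purple points were called under all 8 scalings. The precursor median of 0.46 lies above the dashed line and the transcription unit median of -0.31 lies below it.

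How many transcripts counted as higher or lower depended on the scaling. Among called probes, 28.0% were higher under the reported scaling, 61.7% after quantile normalization, 80.7% with the percentile over all probes, 9.05% after normexp background correction and 62.6% in the authors' deposited value table. The precursor median was 0.58 after quantile normalization, 0.83 with the percentile over all probes, -0.04 after normexp and 0.59 in the deposited values. It stayed above the median of all transcripts by 0.27 to 0.67 under all 8 scalings. The median of transcription units ranged from -0.51 to 0.06, so that class as a whole had no direction that held across scalings.

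A stricter count is given beside the plain one, chosen after this dependence was seen. It takes only transcripts called in the same direction under the reported scaling and 7 others, here "held" calls, while "higher", "lower" and "called" without that word refer to the reported scaling and the brightest probe. Of all tested transcripts, 111 (6.56%) were held as higher in se-2 and 113 (6.68%) as lower. Precursors gave 55 of the 111 and 4 of the 113. Protein-coding loci gave 13 higher and 6 lower, lncRNA loci 10 and 10, other ncRNA loci 12 and 4, and transcription units 19 and 88. The se-2 arrays did not overlap the cbp20 cbp80 arrays for 1031 transcripts, or 61%. Among the 126 precursors all se-2 arrays lay above all cbp20 cbp80 arrays for 81 and below them for 23. Over all 1691 transcripts they lay above for 254 and below for 777.

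**Figure D2:**
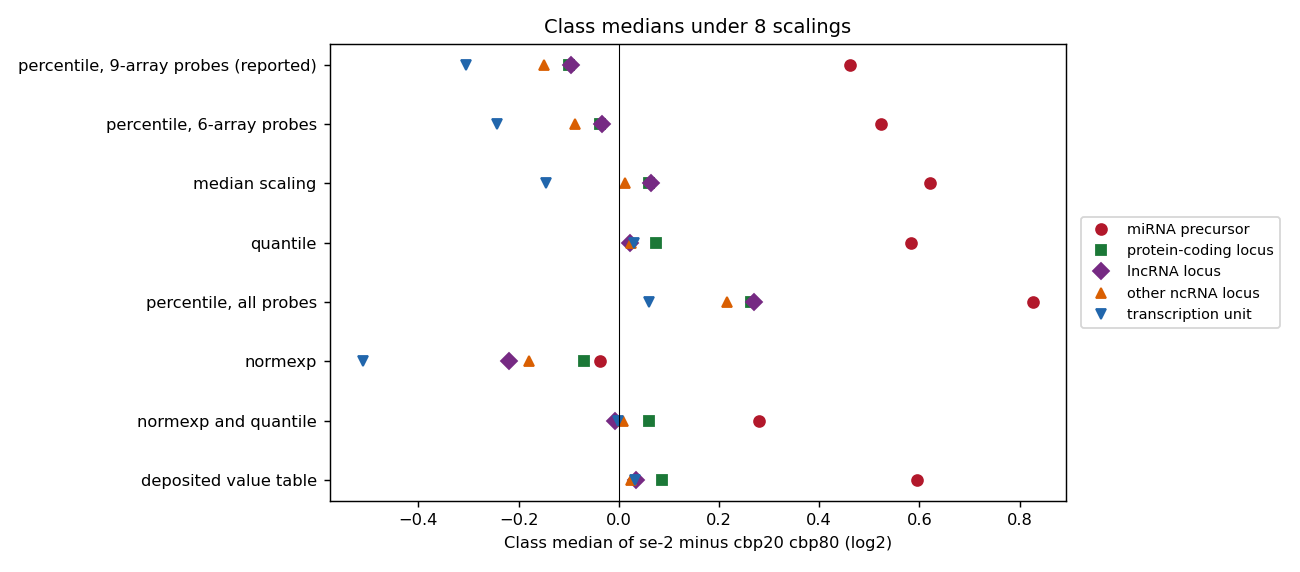
Median of se-2 minus cbp20 cbp80 (log2, horizontal) in each of 5 transcript classes under 8 scalings (rows). The precursor median lies to the right of the other class medians in every row, from -0.04 with normexp to 0.83 with the percentile over all probes.

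The precursor that differed most was MIR172b, whose miRNA represses the AP2-type repressors of flowering. It stood at 2.61, 2.59 and 2.62 in se-2, against -2.57, -2.72 and -2.55 in cbp20 cbp80. These groups lay far apart compared with their spread, and the difference was 5.21 ± 0.06 (SE of limma's fit, n = 3 arrays per genotype), or 37.1-fold, with an adjusted p of 2e-06. It was well above background on no WT array. MIR172a, of the same family, stood at -1.47, -1.50 and -1.45 in se-2 and at -3.92, -3.98 and -4.07 in cbp20 cbp80, a difference of 2.52 ± 0.05. The remaining tested member, MIR172e, differed by 0.46 ± 0.11 at its brightest probe and by 1.33 ± 0.10 at its other one, and neither was a held call. The brightest probe had the opposite sign, -0.19, after normexp background correction, and its call ended without se-2 replicate 3, at 0.44.

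Second in size was MIR319a, whose miRNA targets TCP genes of leaf growth. It stood at -0.48, -0.40 and -0.56 in se-2, against -4.17, -4.08 and -4.11 in cbp20 cbp80, and differed by 3.64 ± 0.06, or 12.4-fold (adjusted p 3.99e-06 by limma). MIR319c differed by 1.38 ± 0.08 and MIR319b by 0.62 ± 0.05, so all 3 tested members were higher in se-2, each of them a held call. MIR779 stood at -0.01, 0.06 and 0.14 in se-2, against -3.23, -3.19 and -3.61 in cbp20 cbp80, a difference of 3.41 ± 0.12 or 10.6-fold. MIR824, whose miRNA targets the MADS-box gene AGL16, averaged 0.34 ± 0.014 in se-2, against -2.13 ± 0.11 in cbp20 cbp80 (SD, n = 3 each), and differed by 2.47 ± 0.07. In MIR319a, MIR779 and MIR824 the lowest se-2 array lay above the highest cbp20 cbp80 array, which the rule that named them required. After normexp the differences were smaller, 1.85 for MIR319a, 0.11 for MIR319b, 2.04 for MIR779 and 1.16 for MIR172a.

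MIR166b, whose miRNA targets HD-ZIP III genes of leaf polarity, stood at 1.11, 1.12 and 1.14 in se-2, against -1.08, -1.19 and -1.13 in cbp20 cbp80, and differed by 2.26 ± 0.05. All 6 tested MIR166 precursors were higher in se-2, with a median difference of 1.55 and MIR166e the least at 1.02 ± 0.04. The second probe of MIR166e gave 0.03 ± 0.05 and was not called. For MIR166g one cbp20 cbp80 array, replicate 3, was left out as an outlier spot, and of the 6 calls its own was the one that did not hold under every scaling. MIR165b, whose miRNA shares those targets, was higher by 1.51 ± 0.05. Members of a family can be similar in sequence, and cross-hybridisation between their probes was not tested.

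MIR160a, whose miRNA targets ARF10, ARF16 and ARF17, stood at -1.55, -1.63 and -1.55 in se-2, against -3.73, -3.89 and -3.80 in cbp20 cbp80, a difference of 2.23 ± 0.06 that was 0.93 after normexp. MIR160b and MIR160c differed by 0.66 ± 0.14 and 0.54 ± 0.07. Both precursors of miR390, which triggers the cutting of TAS3 transcripts, were higher, MIR390b by 1.83 ± 0.06 and MIR390a by 1.54 ± 0.05. MIR167a, of the family that targets ARF6 and ARF8, was higher by 1.15 ± 0.05 and MIR167b by 0.50 ± 0.07. MIR167d, at -0.21 ± 0.04, was called lower, with the opposite sign (0.15) under the percentile over all probes. The array also held these 3 genes under locus names, and those probes gave 1.14 ± 0.05 for MIR167a, 0.46 ± 0.06 for MIR167b and 0.03 ± 0.06 for MIR167d, the last not passing.

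MIR393a and MIR2111b were well above background on no cbp20 cbp80 array. They were tested through their se-2 arrays alone, so their calls are no separate support. MIR393a, whose miRNA targets auxin receptor genes, stood at -4.98, -4.40 and -5.19 in se-2, against -7.27, -6.49 and -7.97 in cbp20 cbp80, at least 2.31-fold higher in se-2. MIR2111b stood at -5.81, -5.63 and -5.54 in se-2, against -8.59, -8.32 and -7.64 in cbp20 cbp80, at least 1.33-fold higher in se-2. "At least" sets each array that does not measure a probe at the higher of the probe's own signal and the array's lowest signal well above background. Both differences took the opposite sign after normexp, at -0.25 and -0.33, so their direction rests on the scaling. MIR393b, measured on every array, was a held call at 2.12 ± 0.08.

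**Figure D3:**
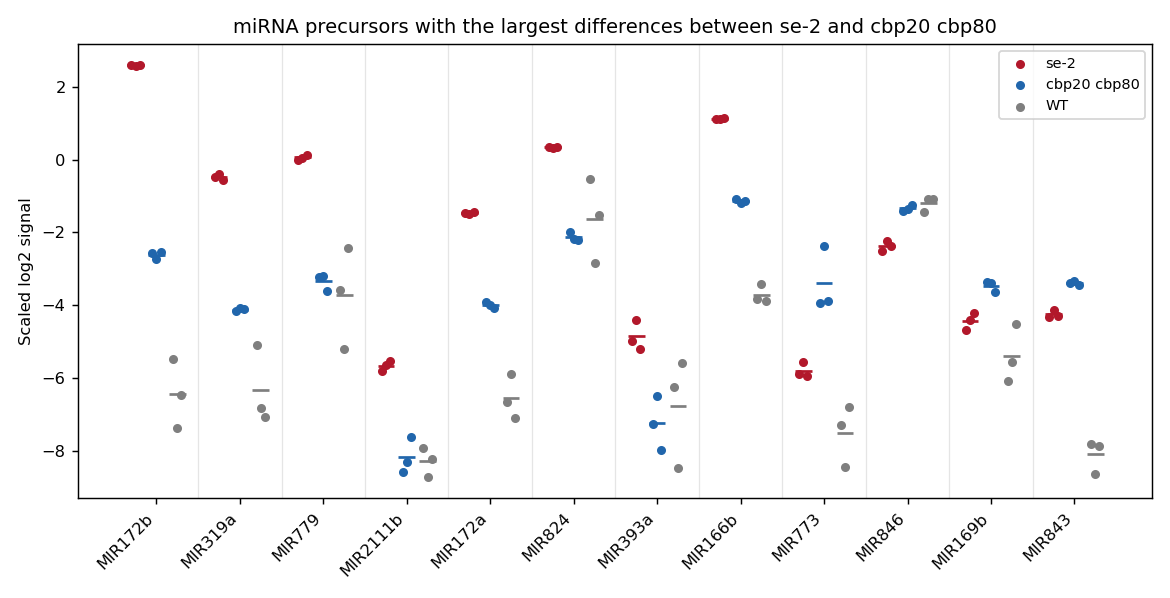
Scaled log2 signal of 12 precursors on each array, se-2 (red), cbp20 cbp80 (blue) and WT (grey), with bars at group means. The first 8 precursors have the largest differences called higher in se-2 and the last 4 are the held calls lower in se-2. MIR172b shows the widest gap, with means of 2.60 in se-2 and -2.61 in cbp20 cbp80.

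Among the other families with at least 3 tested members, all 4 MIR157 precursors were higher in se-2, from 0.32 ± 0.06 for MIR157a to 1.63 ± 0.05 for MIR157c. All 3 MIR171 precursors, whose miRNAs target GRAS-domain genes, were higher, from 0.71 ± 0.05 for MIR171b to 1.63 ± 0.06 for MIR171a. The 3 MIR398 precursors, of a copper-responsive family, were higher by small amounts, 0.24 ± 0.05 for MIR398a to 0.34 ± 0.04 for MIR398b, and all 3 were held calls. Of 13 MIR169 precursors, whose miRNAs target NF-YA genes, 9 were higher, led by MIR169m at 1.15 ± 0.08 (1 se-2 array, replicate 1, was left out as an outlier spot), and 2 were lower. MIR159a, whose miRNA targets MYB33 and MYB65, was higher by 1.03 ± 0.06 (1.97 at another probe) and MIR159b by 0.58 ± 0.05.

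MIR156 precursors, whose miRNAs repress SPL genes of the juvenile phase, were split. MIR156c stood at 3.68, 3.61 and 3.68 in se-2, against 3.18, 3.07 and 3.08 in cbp20 cbp80, a difference of 0.55 ± 0.05 (limma adjusted p 0.000705). MIR156a and MIR156b were also higher, by 0.55 ± 0.05 and 0.32 ± 0.05, while 4 further members did not pass, MIR156h at -0.27 ± 0.11 among them. Of 3 MIR164 precursors, MIR164c was higher by 1.05 ± 0.08 (0.16 after normexp) and MIR164a, at -0.25 ± 0.14, did not pass. The phosphate-responsive MIR399 family gave 3 higher and 1 lower of 6, and 0 of these calls were held. Its MIR399a, well above background on 1 cbp20 cbp80 array, differed by 2.01 ± 0.12 and by -0.01 after normexp. MIR395b and MIR395c were called higher at 0.36 ± 0.05 and 0.28 ± 0.07, neither a held call, and MIR395f stood at -0.01 ± 0.09.

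**Figure D4:**
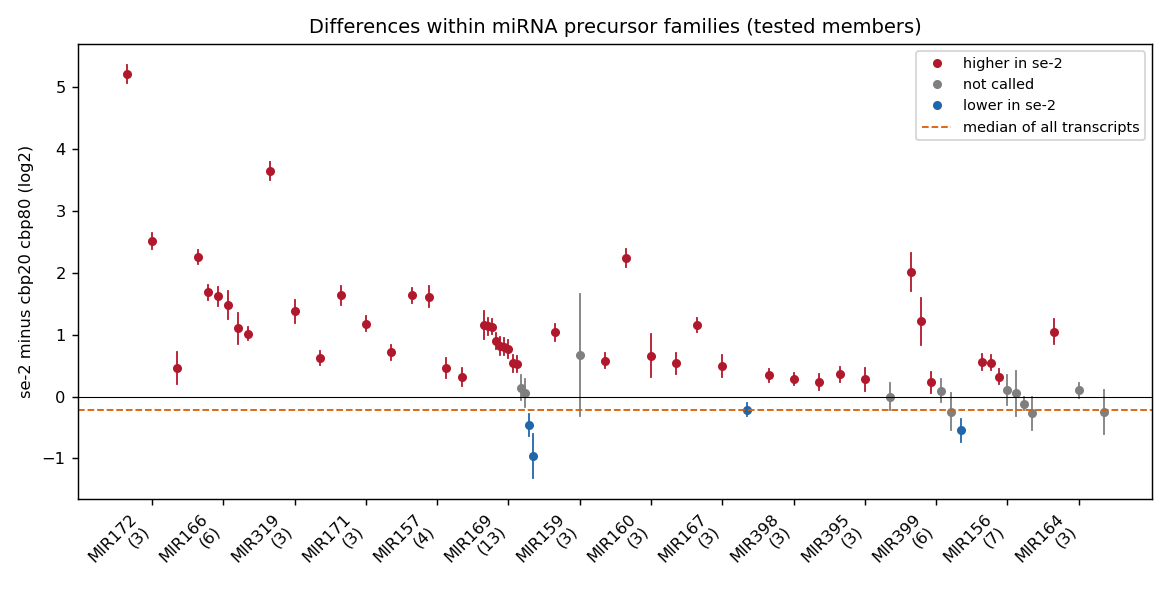
Difference se-2 minus cbp20 cbp80 (log2) for the tested precursors of each miRNA family with at least 3 tested members, with the 95% interval of limma's fit. Every tested member was called higher in se-2 in the MIR172, MIR166, MIR319, MIR171, MIR157, MIR160 and MIR398 families, and the MIR169, MIR167 and MIR399 families hold calls in both directions.

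Precursors of conserved families and of the remaining MIR numbers differed in their counts. Of 81 tested conserved precursors, 61 were higher in se-2, 5 were lower and 15 did not pass, with 49 held higher and 1 held lower and a median of 0.68. Of 45 others, 15 were higher, 13 were lower and 17 did not pass, with 6 held higher and 3 held lower and a median of -0.01. Over all tested transcripts 11.6% were called higher and 37% lower, with 6.56% held higher, 6.68% held lower and a median of -0.21. Both lists were drawn up with earlier results of these data known, and the difference between them was not tested. MIR472, whose miRNA targets disease resistance genes, was among the 6 at 1.65 ± 0.10, as was MIR413 at 1.34 ± 0.10.

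The 4 precursors held as lower in se-2 were MIR773, MIR846, MIR169b and MIR843. MIR773 stood at -5.88, -5.56 and -5.94 in se-2, against -3.95, -2.38 and -3.87 in cbp20 cbp80, so the cbp20 cbp80 arrays were spread widely but all lay above the se-2 arrays. Its difference was -2.39 ± 0.45 (limma adjusted p 0.00779). MIR169b stood at -4.67, -4.40 and -4.20 in se-2, against -3.35, -3.39 and -3.64 in cbp20 cbp80, and differed by -0.96 ± 0.14 (-2.10 at its other probe), in a family where 9 members were higher. MIR843 stood at -4.33, -4.14 and -4.30 in se-2, against -3.38, -3.33 and -3.45 in cbp20 cbp80, a difference of -0.87 ± 0.07. With normexp and quantile normalization the differences were smaller, -0.46 for MIR773, -0.23 for MIR169b and -0.23 for MIR843. MIR846 differed by -1.04 ± 0.08 at its brightest probe, but by 2.57 ± 0.17 and 2.73 ± 0.14 at the other 2, which were both called higher. MIR846 was the single precursor of 74 with several tested probes whose probes were called in opposite directions.

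Several precursors were close to equal in the mutants. MIR162b, whose miRNA targets DCL1, stood at -2.39, -2.29 and -2.33 in se-2 and at -2.37, -2.32 and -2.26 in cbp20 cbp80, and the 95% interval of its difference ran from -0.15 to 0.11. For MIR158a the interval ran from -0.14 to 0.10, for MIR840 from -0.16 to 0.15 and for MIR835 from -0.05 to 0.14. Of the 32 precursors that did not pass, 22 had an interval within 0.5 of 0, and the others had wider or more distant intervals. MIR858, whose miRNA targets MYB genes, had the widest gap among these others. It stood at -4.24, -4.20 and -4.22 in se-2, against -8.57, -4.42 and -8.09 in cbp20 cbp80, where it was well above background on 1 array, and its difference of 2.81 ± 1.12 did not pass. After normexp that difference was -0.07. The other probe of MIR858 was called higher at 3.52 ± 0.40 (limma adjusted p 0.00142), a call that was not held.

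DCL1 was the one member of 20 miRNA biogenesis genes on the array. It stood at 2.79, 2.79 and 2.79 in se-2, against 2.12, 2.09 and 2.04 in cbp20 cbp80, and differed by 0.71 ± 0.04 (limma adjusted p 0.000146). The se-2 arrays lay above all WT arrays (2.47, 2.20 and 2.56) and the cbp20 cbp80 arrays lay below them. MIR168a, whose miRNA targets AGO1, stood at 2.37, 2.38 and 2.42 in se-2, against 1.57, 1.56 and 1.48 in cbp20 cbp80, and differed by 0.85 ± 0.05. MIR162a was higher by 0.25 ± 0.04, where MIR162b did not pass, and MIR403, whose miRNA targets AGO2, by 0.31 ± 0.05.

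Of 7 tested genes of small RNA silencing, 4 were higher in se-2 by their brightest probes (3 held), 0 were called lower by limma, also at an unadjusted p under 0.05, and 3 did not pass. AGO2, an Argonaute of antiviral defence, stood at 1.88, 2.00 and 1.97 in se-2, against 0.94, 0.82 and 0.93 in cbp20 cbp80, and was higher by 1.05 ± 0.06, or 2.08-fold. NRPD1A, the largest subunit of RNA polymerase IV, was higher by 0.40 ± 0.05 and DCL3, the Dicer of heterochromatic small RNAs, by 0.22 ± 0.05. RDR2, at 0.17 ± 0.05, was called under 5 of the 7 other scalings, and its call ended, at 0.14 to 0.18, when any array other than cbp20 cbp80 replicate 2 was left out. DCL4, at 0.13 ± 0.04, NRPD1B, at 0.12 ± 0.04, and DCL2, at 0.06 ± 0.05, did not pass, and one further DCL4 probe was called lower at -0.18 ± 0.06. The list's median was 0.17, against -0.21 over all transcripts, of which 11.6% were called higher and 37% lower.

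Of 4 tested genes known as miRNA targets, AGO2 and DCL1 were higher in se-2. TIR1, an auxin receptor gene targeted by miR393, stood at -0.15 ± 0.12 and NAC1, a target of miR164, at -0.25 ± 0.13, and neither passed. Outside that list NF-YA5, a target of miR169, stood at 0.03, 0.04 and 0.11 in se-2, against -0.67, -0.66 and -0.64 in cbp20 cbp80, and was higher by 0.72 ± 0.04. The TAS4 locus, AT3G25795, gives rise to trans-acting small RNAs after a cut by miR828. It was called higher in se-2, by 0.90 ± 0.13, under the reported scaling and 6 of the 7 others, but differed by 0.01 after normexp. The MIR828 precursor was called lower, at -0.70 ± 0.11, under the reported scaling and 3 others. It differed by -0.13 after normexp with quantile normalization, and neither was a held call.

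Genes of abscisic acid response, cold and seed maturation divided. Of 9 tested, 5 were higher in se-2 (4 held), 3 were lower (1 held) and 1, LTI78, did not pass. Over all transcripts 11.6% were called higher and 37% lower, and the list's lower calls were near that share. EM1, a late embryogenesis abundant gene of seeds, stood at -0.89, -0.92 and -0.87 in se-2, against -4.40, -3.86 and -4.14 in cbp20 cbp80, and was 3.24 ± 0.14 higher, or 9.45-fold. KIN1, a cold-induced gene, stood at -2.26, -2.36 and -2.36 in se-2, against -4.62, -4.28 and -4.16 in cbp20 cbp80, and was higher by 2.03 ± 0.13. The chloroplast cold-protection genes COR15B and COR15A were higher by 0.75 ± 0.06 and 0.68 ± 0.04. ABI3, a transcription factor of seed maturation, was called higher by 0.54 ± 0.11 (1.15 and 1.25 at its other probes) but took the opposite sign, -0.24, after normexp. LTI65, an abscisic acid and drought gene, went the other way, with -3.41, -3.35 and -3.33 in se-2, against -2.39, -2.22 and -2.59 in cbp20 cbp80, a difference of -0.96 ± 0.10. COR47 and ABI5 were called lower by small amounts, at -0.18 ± 0.05 and -0.20 ± 0.05, and neither was a held call.

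Light signalling held one of the widest gaps towards cbp20 cbp80. HFR1, a bHLH factor of far-red light response, stood at -1.04, -0.98 and -0.84 in se-2, against 1.76, 1.79 and 1.76 in cbp20 cbp80, and differed by -2.72 ± 0.06, or 6.60-fold. PIF4, a phytochrome-interacting factor, was lower in se-2 by a difference of -0.68 ± 0.04, also a held call. PHYA, the far-red photoreceptor, was called lower at -0.28 ± 0.05, which turned to 0.09 under the percentile over all probes. PHYB, COP1, HY5, PIF3 and FHY1 did not pass, with differences of -0.10 to 0.11, though one further probe each of PHYB (-0.20) and COP1 (-0.14) was called lower. Of 8 tested genes of the list, 3 were lower by their brightest probes (2 held), near the 37% of all transcripts, and 0 were called higher by limma, also at an unadjusted p under 0.05.

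Both defence genes on the array were lower in se-2, as were 37% of all transcripts. WRKY40, a transcription factor gene of pathogen and wounding response, stood at -0.86, -0.91 and -0.78 in se-2, against 1.38, 1.37 and 1.38 in cbp20 cbp80, a difference of -2.22 ± 0.05 or 4.67-fold. PAD3, which makes the last step of camalexin synthesis, stood at -1.09, -1.10 and -1.12 in se-2, against -0.37, -0.41 and -0.58 in cbp20 cbp80. Its difference of -0.65 ± 0.07 was called under 6 of the 7 other scalings.

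The circadian clock genes did not move as a group. LHY, a MYB factor of the morning, stood at 3.94, 4.11 and 4.03 in se-2, against 3.39, 3.39 and 3.35 in cbp20 cbp80, and was higher by 0.65 ± 0.06. Its partner CCA1 stood at 2.62, 2.54 and 2.59 in se-2 and at 2.57, 2.58 and 2.52 in cbp20 cbp80, with an interval of the difference from -0.08 to 0.14, while one of its other probes was called higher at 0.14. Of the pseudo-response regulators, PRR3 was higher by 0.28 ± 0.05. PRR5, PRR9 and PRR7 were lower, at -0.54 ± 0.05, -0.51 ± 0.05 and -0.47 ± 0.05, each called under 6 of the 7 other scalings, and TOC1 did not pass at 0.02 ± 0.05. The labels name no hour of harvest, and what part it had in these values was not tested.

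**Figure D5:**
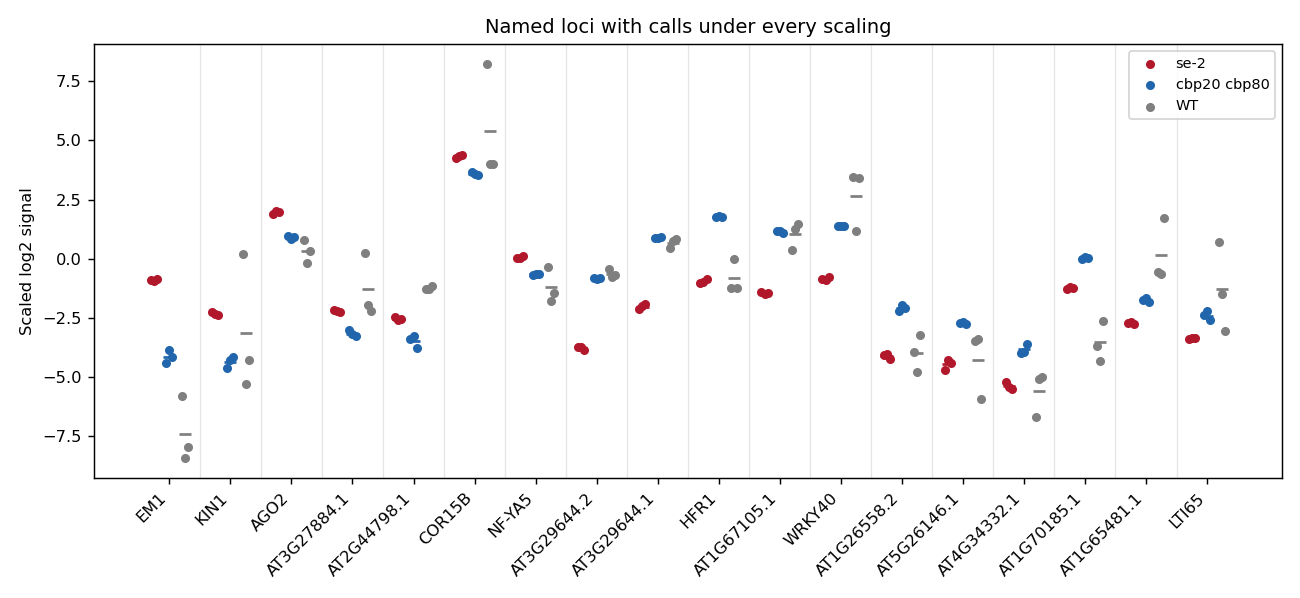
Scaled log2 signal of named protein-coding and noncoding loci with held calls on each array, se-2 (red), cbp20 cbp80 (blue) and WT (grey), with bars at group means. Loci from EM1 to NF-YA5 were higher in se-2 and those from AT3G29644.2 to LTI65 were lower. All were chosen among calls without overlap between se-2 and cbp20 cbp80 arrays, so the gaps are no separate result.

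The lncRNA locus AT3G29644, which overlaps a pseudogene in the gene table, differed most among lncRNA loci. Its version AT3G29644.1 stood at -2.14, -2.02 and -1.92 in se-2, against 0.89, 0.88 and 0.90 in cbp20 cbp80, a difference of -2.92 ± 0.07 or 7.57-fold. Version AT3G29644.2 gave -2.95 ± 0.05 (limma adjusted p 3.99e-06). In cbp20 cbp80 the first version lay just above the WT arrays (0.47, 0.76 and 0.81), and in se-2 it lay below them.

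Further lncRNA loci lower in se-2 were AT5G26146.1, which overlaps MIR156f in the gene table, at -1.74 ± 0.11, and AT4G34332.1, which overlaps the protein-coding locus AT4G34330, at -1.55 ± 0.13. AT5G26146.1 stood at -4.69, -4.29 and -4.39 in se-2, against -2.71, -2.67 and -2.77 in cbp20 cbp80. The largest higher calls were smaller: AT2G44798.1 at 0.92 ± 0.14 (its other 2 probes did not pass), AT3G58795.1 at 0.71 ± 0.07 (not held), AT5G64572.1 at 0.65 ± 0.05 and AT5G41612.1 at 0.54 ± 0.06. After normexp these differences were 0.13, 0.06, 0.18 and 0.13. In all, 18 of 198 lncRNA loci (9.09%) were called higher and 62 (31.3%) lower, near the 11.6% and 37% over all transcripts, and 118 did not pass. For 122 of the 198 the 95% interval of the difference lay within 0.5 of 0.

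Other ncRNA loci gave 20 higher (15.5%), 58 lower (44.96%) and 51 not passing of 129. The shares over all transcripts were 11.6% higher and 37% lower. AT1G67105.1, between LBD40 and the cytokinin hydroxylase gene CYP735A2, stood at -1.41, -1.50 and -1.44 in se-2, against 1.18, 1.19 and 1.09 in cbp20 cbp80, and differed by -2.61 ± 0.05, or 6.08-fold. The cbp20 cbp80 arrays fell within the WT range (0.36 to 1.47) and the se-2 arrays lay below it. AT1G26558.2, next to the beta-glucosidase gene BGLU40, differed by -2.03 ± 0.10 at its brightest probe but by -0.54 and -0.39 at the other 2, neither held. AT1G70185.1 differed by -1.26 ± 0.04. AT3G06962.1, at -0.98 ± 0.15, was called under 6 of the 7 other scalings, and one of its other probes, at -0.19, did not pass. In the higher direction, AT3G27884.1 stood at -2.18, -2.21 and -2.26 in se-2, against -3.03, -3.19 and -3.27 in cbp20 cbp80. Its held difference of 0.95 ± 0.07 was 0.28 after normexp. AT3G14185.1 and AT1G55525.1 were well above background on no cbp20 cbp80 array. AT3G14185.1 was at least 2.02-fold and AT1G55525.1 at least 1.58-fold higher in se-2. Both took the opposite sign after normexp, at -0.37 and -0.32.

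Over all tested transcripts 11.6% were called higher and 37% lower. Among 1140 transcription units, 64 (5.61%) were higher, 450 (39.5%) were lower and 626 did not pass, with 19 and 88 of these calls held. Their tested probes were dim: 51.0% lay among the 1014 dimmest of all 3040 tested probes, against 21.7% of precursor probes and 7.29% of probes of protein-coding loci. AT1TU090130 stood at -1.42, -1.38 and -1.25 in se-2, against -6.25, -6.23 and -7.74 in cbp20 cbp80, where it was well above background on no array. Its signal in se-2 exceeded that in cbp20 cbp80 by at least 26.3-fold. It was tested through its se-2 arrays alone, so the higher calls of its 3 probes are no separate support. That bound is for the reported scaling: the log2 difference of 5.39 was 1.66 after normexp and 2.03 after normexp with quantile normalization. AT4TU043080 was higher by 2.57 ± 0.08, AT2TU058180 by 2.11 ± 0.07 and AT4TU041990 by 1.99 ± 0.09, against 0.39, 0.36 and 0.49 after normexp. AT1TU021610, well above background on no cbp20 cbp80 array, was higher at least 2.45-fold but gave -0.15 after normexp.

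In the lower direction, AT5TU035150 stood at -5.83, -5.51 and -5.71 in se-2, against -2.20, -2.14 and -2.31 in cbp20 cbp80, a difference of -3.47 ± 0.10 or 11.1-fold (-1.61 after normexp). AT5TU068220, a bright transcription unit, stood at 1.58, 1.70 and 1.74 in se-2, against 4.09, 4.06 and 3.96 in cbp20 cbp80, and differed by -2.36 ± 0.07. Its se-2 arrays fell within the WT range of 1.32 to 1.78, and its cbp20 cbp80 arrays lay above it. AT5TU071970 and AT3TU040390, each well above background on 1 se-2 array, differed by -3.00 ± 0.46 and -2.10 ± 0.32. AT3TU040120, well above background on no se-2 array, was at least 2.61-fold lower in se-2. That bound is for the reported scaling, where its log2 difference was -2.22. With normexp and quantile normalization the differences were smaller, -0.48 for AT5TU071970, -0.18 for AT3TU040390 and -0.13 for AT3TU040120. The files give these transcription units no gene name.

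Position on the slide moved in part with genotype. Per the file headers, se-2 replicates 1 and 2 lay in row 1 and se-2 replicate 3 lay in row 2 with all 3 cbp20 cbp80 arrays. With the row as a block, 99 of the 111 held higher calls and 103 of the 113 held lower calls passed again, and within row 2 alone (1 se-2 array against 3, with the lone array assumed to vary like the others) 74 and 89 passed, with no change of sign. Of the 55 precursors held higher, 54 passed with the block and 44 within row 2. Of the held calls named by the rule given below, MIR773 (-2.54), MIR157a (0.31) and DCL3 (0.26) passed in neither. Within row 2 alone, MIR169b (-0.74), MIR398a (0.31), MIR398b (0.36), LTI65 (-0.93), NRPD1A (0.43), PRR3 (0.30), AT2G44798.1 (0.90) and AT5TU071970 (-2.72) did not pass either. Held calls named outside that rule, such as MIR162a and MIR403, are not covered by these lists.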

How the data were processed

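Per the labels' protocols, Cy3-labelled cRNA of seedling total RNA was hybridised to Agilent one-colour arrays. In the deposited scanner files each spot has an intensity, background-subtracted by Agilent Feature Extraction and not normalized between arrays, per the file headers. The authors' deposited value table holds log2 values, whose normalization the sources used here do not give: it followed the logged signals at r = 0.999 to 1.00 with column medians of 0.322 to 0.323, its log2 scale was read from the values, and it served as an alternative.

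Control spots and outlier spots (2 to 30 per mutant array) were left out, and no spot was saturated. The log2 processed signal was scaled by subtracting, array by array, the 75th percentile of the 1835 probes that all 9 arrays measured well above background, and the 6 mutant arrays were fitted with limma 3.58.1 (lmFit, eBayes) in R 4.3.3. Calls needed an adjusted p (Benjamini-Hochberg, two-sided) under 0.05 over 3040 probes, with 12 missing values. The series' design calls the 3 arrays of a genotype biological replicates. Whether they came from separate cultures is not given in the sources used here, so p-values measure the spread between these samples. Replicate numbers did not pair the arrays: deviations of same-numbered arrays correlated at -0.023 to 0.017.

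Alternatives were 7 other scalings, filters, variance models, replicate and slide-row blocks and leaving out each array. Normexp (offset 50) used median signals, since the files hold no mean signal. The slide-row alternatives were chosen after the headers were seen. Symbols and neighbours came from the RefSeq gene table (TAIR10.1), and as the file headers name an older build, no coordinates are given. Probe sequences were not used here. The script was tested on simulated data.

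The members, lists and tests were chosen with earlier results of these data known. Named were the largest non-overlapping calls per class and direction (8 precursors, 5 transcription units, 4 lncRNA loci, 4 other ncRNA loci, 5 protein-coding loci), up to 6 members per list, the extremes of families with 3 or more tested members, the 4 precursors whose 95% intervals stayed nearest 0 and a few fixed names. Other members of small groups were named after their values were seen. The lists of flowering, phosphate-starvation and housekeeping genes had 0 members on the array. Python 3.11.15 with matplotlib 3.10.9 drew the figures.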

Additional observations from a re-analysis of the deposited data

How the results depend on the processing

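The precursor counts and median kept their direction under most settings, and the totals moved more. With normexp the excess of higher precursors was gone, at 55 higher and 56 lower. The median was 0.46 as reported, against 0.52 with the percentile over probes of the 6 mutant arrays, 0.62 with median scaling, 0.58 with quantile normalization, 0.83 with the percentile over all probes, 0.59 in the deposited values, 0.28 with normexp and quantile normalization, 0.24 with no filter on dim probes, 0.34 with probes well above background on all 6 arrays, 0.50 with the slide row as a block or within row 2, and -0.04 with normexp, the one setting that turned its sign. Leaving out an array gave 0.35 to 0.47. Precursors called higher in se-2 numbered 76 as reported, 51 within row 2, 36 at 2-fold and 29 with all 9 arrays in the fit, and 70 to 76 without single arrays. Those called lower numbered 18 as reported, 8 with quantile normalization, the deposited values or normexp and quantile normalization, 4 with the percentile over all probes, 56 with normexp, 34 with no filter, 11 with the slide row as a block, 7 within row 2, 2 with all 9 arrays or at 2-fold, and 15 to 18 without single arrays.

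By probe, 416 were higher and 1071 lower as reported. The 6-array percentile gave 490 higher and 879 lower, median scaling 709 and 627, quantile normalization 713 and 443, the percentile over all probes 1084 and 260, the deposited values 737 and 440, normexp 242 and 2433, and normexp with quantile normalization 652 and 549. The row block gave 278 and 598, row 2 alone 189 and 370, all 9 arrays 101 and 96, a 2-fold minimum 131 and 120, and no filter 384 and 7219. Single arrays left out gave 341 to 408 higher and 837 to 1009 lower. Replicate number as a block left 348 higher and 887 lower, with 72 precursors higher, 15 lower and a median of 0.46. The arrays share only a number.

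Among named transcripts called under the reported scaling, signs turned under normexp for MIR172e (-0.19), MIR2111b (-0.33), MIR393a (-0.25), MIR395b (-0.11), MIR399a (-0.01), MIR870 (-0.19), ABI3 (-0.24), AT1G55525.1 (-0.32), AT3G14185.1 (-0.37) and AT1TU021610 (-0.15). They turned under the percentile over all probes for PHYA (0.09, AT1G09570.1) and MIR167d (0.15), and for MIR399e under normexp with quantile normalization (0.02). Signs also turned for some named transcripts that were not called, such as MIR858 (-0.07 after normexp). The causes were not tested. The 9-array fit takes in the wider spread of WT (median SD 0.544), and 38 of the 111 held higher and 38 of the 113 held lower calls passed in it. Probes near background limit the transcription units most: the 10429 probes well above background on no mutant array had a median difference of -0.768. The log2 percentile subtracted was 8.97 to 9.05 on se-2 arrays and 8.35 to 8.42 on cbp20 cbp80 arrays. Equal unscaled signals thus read lower in se-2 under the reported scaling, and what part this had in the calls was not tested.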

Other observations

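The WT arrays lay on 3 further slides, so genotype and slide cannot be told apart in any comparison with them, and the order of the groups is given as values only. Of the 55 precursors held as higher in se-2, 49 had every array of both mutants above every WT array, and for 4 (MIR779, MIR824, MIR319c and MIR167b) the se-2 arrays alone lay above. The WT arrays gave -0.53, -2.85 and -1.51 for MIR824 and -3.57, -5.19 and -2.43 for MIR779. Of the 4 precursors held as lower, MIR843 and MIR773 lay above every WT array in both mutants, MIR169b in cbp20 cbp80 alone, and MIR846 lay below every WT array in se-2 alone. Of the 88 transcription units held as lower in se-2, 23 had only cbp20 cbp80 above every WT array and 20 had only se-2 below every WT array. DCL1 was the one held call of the 111 with se-2 above and cbp20 cbp80 below all WT arrays.

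Probes of one transcript mostly shared a sign. Of 814 transcripts with 2 or more tested probes, 640 had all differences of one sign, 283 had all probes called in the same direction and 7 had probes called in opposite directions, among them MIR846 and the ncRNA locus AT4G04223.1. In 0 of these 7 were both of the opposed calls held by limma under all 8 scalings. Of 57 loci with several tested transcript versions, 45 had versions of one sign and 1 had versions called in opposite directions.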
